A study of Homo sapiens with 4 samples.

Results

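The anchor at the promoter of EPHB3 was among those with the most cohesin-bound contacts within a chromosome in TAE684-resistant Kelly cells. It also ranked high in ligated fragments shared with other chromosomes, the measure from which random ligation is predicted here. Nearly all of its contacts under 2 Mb lay on the side of the gene and the stretch beyond it. EPHB3 lies at chr3:184279587-184300197 in hg19, and its start falls inside the anchor at chr3:184278135-184282573, called the hub anchor here. An anchor is an interval that the authors defined and between which ligated fragments were counted. Every anchor pair with a midpoint between chr3:183900000-184700000 was taken, which gave 2841 of 720049 pairs and 51 of 39507 anchors. The hub was picked for its number of called interactions in these same tables, so its call counts and its PETs within the chromosome are given as a description, without a test.

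Chromatin interaction analysis by paired-end tags (ChIA-PET) ligates DNA fragments that are bound by the same protein complex after its immunoprecipitation. The protein pulled down was SMC1, a subunit of cohesin, and a ligated pair read from both ends counts as a paired-end tag (PET). The cells were a derivative of Kelly, a neuroblastoma line, that resists the ALK inhibitor TAE684 and was kept in 1 µM of it. They carried either the shBORIS hairpin or the control hairpin shLUC, with 2 libraries per group, 24 h of infection and 48 h of puromycin selection. Both groups share the resistance and the inhibitor. The labels do not say whether the libraries of a group came from separate cultures or, for shBORIS, from the same hairpin. The authors deposited a single table per group that pools its 2 libraries. No value therefore has a replicate error, and all intervals are exact 95% intervals for counting error alone. The tables held 449979 PETs in shBORIS and 434975 in shLUC, of which 163041 and 146140 joined anchors of the same chromosome.

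EPHB3 is a receptor tyrosine kinase of the Eph family, which binds membrane-anchored ephrin-B ligands on neighbouring cells and is known for guiding cell positioning, boundary formation and axon growth. Cohesin extrudes chromatin loops that tend to stop where CTCF is bound, and such stops bring promoters next to distant elements. BORIS, or CTCFL, is a paralog of CTCF with a closely similar DNA-binding domain. In the RefSeq gene order of GRCh38.p14 the nearest protein-coding neighbours of EPHB3 are CHRD, a secreted antagonist of bone morphogenetic proteins, toward lower coordinates and MAGEF1, a member of the MAGE family, toward higher coordinates. EPHB3 is transcribed toward higher coordinates. No anchor other than those overlapping EPHB3 is given a gene name, since gene positions of hg19 were not used here, and the other Eph receptors and ephrins were not analysed for the same reason.

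The hub anchor covers the start of EPHB3, with 1452 bp before it and 2986 bp after it. The promoter is shown because every contact of the hub described below is counted at the anchor that holds it. The sequence runs from 250 bases before the RefSeq start to 50 after it, on the plus strand of GRCh38.p14 at chr3:184561535-184561834, coordinates that cannot be set beside the hg19 positions used elsewhere. Capitals mark matches on either strand to CCCTC, the repeat after which CTCF is named, and to GGGCGG, the core of the GC box bound by SP1-like factors.
EPHB3 promoter: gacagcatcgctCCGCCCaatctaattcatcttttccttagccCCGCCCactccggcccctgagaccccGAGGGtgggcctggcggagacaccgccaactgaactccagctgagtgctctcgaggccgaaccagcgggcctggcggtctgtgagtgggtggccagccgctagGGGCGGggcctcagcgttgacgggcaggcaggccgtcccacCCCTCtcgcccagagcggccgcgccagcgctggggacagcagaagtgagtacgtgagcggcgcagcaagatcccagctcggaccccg

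The promoter was rich in CpG. It held 26 CpG dinucleotides and 69% G and C, against medians of 14 and 58.7% over the 35116 RefSeq promoters of the same length. Both strands were searched for the motifs, and the matches do not overlap. CCCTC matched at 2 places and GGGCGG at 3. Such short matches are common, since 71.2% of all promoters hold CCCTC and 44.95% hold GGGCGG, and a match is a description of the letters, not a bound site.

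The hub anchor carried 122 PETs to other anchors of chromosome 3 in shBORIS and 124 in shLUC. In shBORIS these lay on 37 partner anchors and in shLUC on 42. Levels in the groups were close, with a scaled ratio of shBORIS over shLUC of 0.882 (0.681 to 1.14), where each value was divided by its table's PETs within chromosomes. PETs joining the hub to other chromosomes, which did not enter the calls that picked the hub, numbered 142 in shBORIS and 132 in shLUC. The scaled ratio was 1.08 (0.848 to 1.38), with an adjusted p = 1 by Fisher's exact test over all anchors. These PETs fell on 270 anchor pairs, 1 of which was seen in both tables, and were as thinly spread as those of the whole window, where 3 of 2304 such pairs were seen in both. Of all hub PETs, 46.2% (40.1 to 52.4) stayed within the chromosome in shBORIS and 48.4% (42.2 to 54.7) in shLUC.

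Among 39507 anchors the hub ranked 42nd in PETs within the chromosome in shBORIS and 9th in shLUC, where the median anchor had 5 in either table. In PETs to other chromosomes the hub ranked 31st in shBORIS and 28th in shLUC, where the median anchor had 11 in either table. It was also wide, 4439 bp against a median of 1172 bp. Per kb of anchor it had 27.5 PETs in shBORIS and 27.9 in shLUC, ranks 211 and 75, where the median anchor had 4.21 and 3.95 per kb. Width thus moves with the hub's rank, and its part in it was not tested. Set beside the 278 other anchors whose width was within a factor of 1.2, the hub had 11 called interactions in shBORIS, which 13 of those anchors reached, and 15 in shLUC, which 0 of them reached. By called interactions the hub ranked 29th of all anchors in shBORIS, tied with others at 11, and 2nd in shLUC, tied with another at 15. The median of the anchors of like width was 4 calls in shBORIS and 3 in shLUC. Of all PETs of these anchors, 42.3% stayed within the chromosome in shBORIS and 39.8% in shLUC. For the hub these shares were 46.2% and 48.4%.

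**Figure D1:**
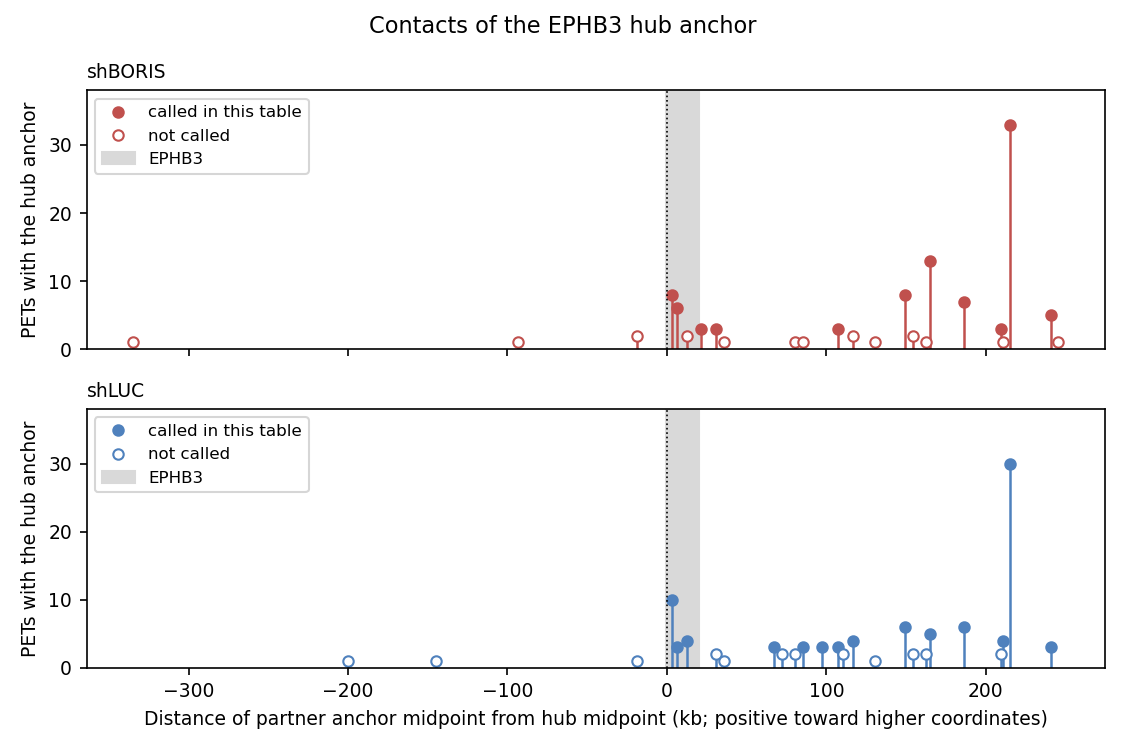
PETs between the hub anchor and each partner anchor within the plotted range, against the distance of the partner's midpoint from the hub's midpoint in kb, for shBORIS (top) and shLUC (bottom). Filled points are called interactions, open points are pairs not called, and the grey band is EPHB3. Filled points lie only on the positive side, and the tallest, 215 kb away, has 33 PETs in shBORIS and 30 in shLUC.

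All 18 partners called in either table lay at higher coordinates than the hub, that is on the side into which EPHB3 is transcribed. Counting every PET under 2 Mb, 105 of 109 pointed that way in shBORIS, or 96.3% (90.9 to 99.0), and 108 of 112 in shLUC, or 96.4% (91.1 to 99.0). The 4 PETs toward lower coordinates came from 3 anchors in shBORIS and the 4 in shLUC from 4 anchors, with at most 2 PETs on a pair. Direction did not enter the choice of the hub. The nearest anchor on that lower side, chr3:184260838-184262422, was only 18.7 kb away and well recovered, with 49 PETs of its own in shBORIS and 34 in shLUC. It had 2 PETs with the hub in shBORIS and 1 in shLUC. From the hub up to its strongest partner, 215 kb away, 23 of 23 anchors shared at least 1 PET with it in either table. Below the hub 5 of 23 window anchors did, but these reach down to -376 kb. The stretches are thus of unlike length, and the upper one was ended at the hub's own strongest contact.

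So lopsided a set of contacts was uncommon but not confined to this anchor. There were 257 anchors with at least 50 PETs under 2 Mb in each table. Of these 9, or 3.5%, had a share on a single side at or above the hub's in both tables, the hub included. In shBORIS taken alone 18 anchors did so and in shLUC taken alone 22, the hub included. The median share on the fuller side was 78.1% in shBORIS and 78.2% in shLUC. The 3 anchors outside the window most like the hub in PETs and calls were chosen by the distance in log2(value + 1) over these 4 values, and they were less lopsided. chr3:128144166-128148416, at a distance of 0.42, had 13 calls in each group and sent 82.8% (75.4 to 88.8) of its PETs toward higher coordinates in shBORIS and 81.9% (72.6 to 89.1) in shLUC. chr9:135041475-135047977, at 0.45, had 12 calls in shBORIS and 11 in shLUC and sent 70.6% (61.5 to 78.6) and 77.5% (69.3 to 84.4). chr17:70111550-70122491, also at 0.45 and with 12 and 11 calls, was balanced, with 49.1% (39.4 to 58.8) and 49.5% (39.4 to 59.6). The difference in direction between these anchors and the hub was not tested, but their intervals lie below the hub's share in both tables.

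**Figure D2:**
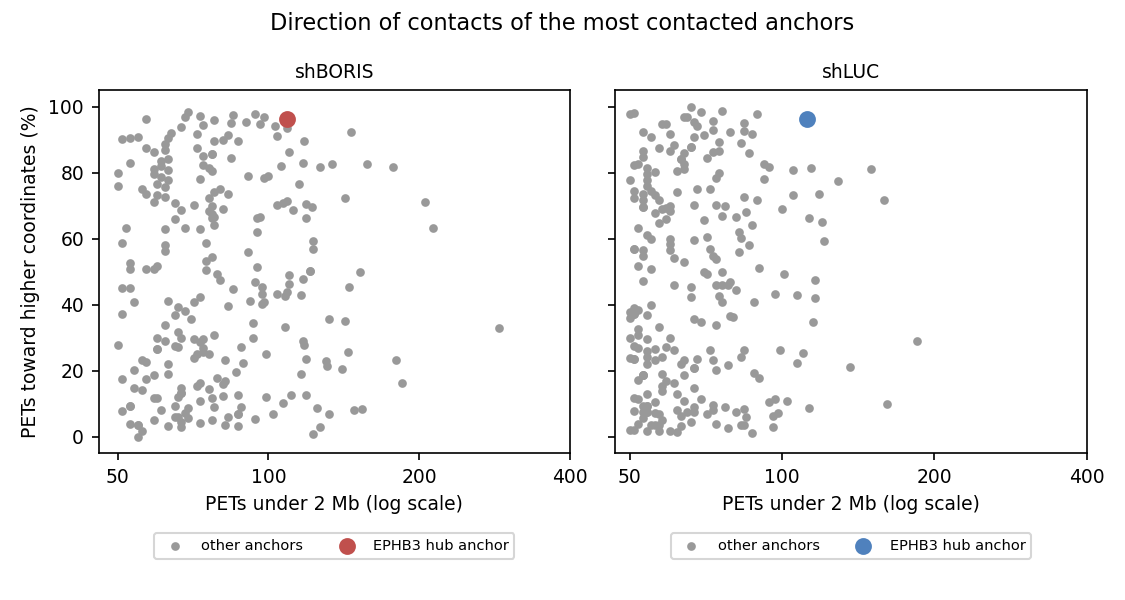
Share of PETs under 2 Mb that point toward higher coordinates (percent) against the number of such PETs (log scale) for the 257 anchors with at least 50 in each table, in shBORIS (left) and shLUC (right). The hub anchor, the large coloured point, lies at 96.3% in shBORIS and 96.4% in shLUC, near the top edge.

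The strongest contact of the hub reached chr3:184494202-184496926, 215 kb away, with 33 PETs in shBORIS and 30 in shLUC. This is 30.3% (21.8 to 39.8) of the hub's PETs under 2 Mb in shBORIS and 26.8% (18.9 to 35.98) in shLUC, and the scaled ratio was 0.986 (0.583 to 1.67). Random ligation, predicted from the PETs of both anchors to other chromosomes, would give 0.018 PETs in shBORIS and 0.019 in shLUC. A group of further strong contacts lay on the near side of this anchor. The hub shared 13 PETs in shBORIS and 5 in shLUC with chr3:184444580-184446185, a scaled ratio of 2.33 (0.78 to 8.35). With chr3:184428157-184430713 it shared 8 PETs in shBORIS and 6 in shLUC. With chr3:184465876-184467056 it shared 7 PETs in shBORIS and 6 in shLUC. Among contacts beyond EPHB3 called in both tables, the pair with 13 and 5 PETs had the largest ratio, and its interval includes 1. chr3:184520582-184521907, 241 kb away and past the strongest partner, had 5 PETs with the hub in shBORIS and 3 in shLUC. chr3:184386500-184388573 had 3 in each.

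Contacts inside EPHB3 itself were another group. Under 20 kb the hub had 14.8% (8.98 to 22.3) of its PETs in shBORIS and 14.5% (8.84 to 22.0) in shLUC. The share over all anchors was 19.9% in shBORIS and 18.4% in shLUC. Of the 18 called partners, 3 overlap the gene, and together they held 16 of the hub's PETs in shBORIS and 17 in shLUC. chr3:184282825-184284446, next to the hub, had 8 PETs with it in shBORIS and 10 in shLUC. chr3:184285752-184288024 had 6 in shBORIS and 3 in shLUC. Both were called in each table, whereas chr3:184291873-184293527, with 2 PETs in shBORIS and 4 in shLUC, was called in shLUC alone.

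The hub had 11 called interactions in shBORIS and 15 in shLUC, where a call needs 3 PETs or more and the authors' Bayes probability of at least 0.9. With 5 PETs required it had 7 in shBORIS and 5 in shLUC, so the order of the groups turns with this minimum. Of the 18 called in either table, 8 were called in both, or 44.4%, where 34.8% of all called interactions were called in both. Calls of shBORIS alone were 3, or 16.7%, beside 37.8% of all, and calls of shLUC alone were 7, or 38.9%, beside 27.4% of all. Nothing is read from these shares, since calls picked the hub. The calls found in a single table rest on few PETs. The 3 of shBORIS alone had 3 PETs each in shBORIS and 0, 2 and 2 in shLUC. They reached chr3:184301277-184302791, just past the end of EPHB3, chr3:184309386-184313407 and chr3:184489169-184490322. The 7 of shLUC alone had 0 to 2 PETs in shBORIS and 3 or 4 in shLUC.

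Besides the anchor in EPHB3, those 7 lay between 67.2 kb and 792 kb from the hub. chr3:184346965-184348183 and chr3:184376595-184378457 had 0 PETs with the hub in shBORIS and 3 in shLUC. chr3:184364852-184366110 had 1 in shBORIS and 3 in shLUC, chr3:184395851-184398502 had 2 and 4, and chr3:184490958-184491901 had 1 and 4. The farthest called partner of the hub, chr3:185071348-185072894, had 0 PETs in shBORIS and 3 in shLUC and lies outside the window. These values differ by no more than 3 PETs, and no difference was detectable at this depth. The next longest called contacts were those at 241 kb and 215 kb.

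By distance most of the hub's PETs within the chromosome lay at 100 to 500 kb. In that class it had 81 PETs in shBORIS, or 66.4% (57.3 to 74.7), and 72 in shLUC, or 58.1% (48.9 to 66.9), where the share over all anchors was 32.8% in shBORIS and 33.4% in shLUC. The single pair with the strongest partner gave 33 of the 81 in shBORIS and 30 of the 72 in shLUC. Between 20 and 100 kb it had 8.2% (4.0 to 14.6) in shBORIS and 12.9% (7.56 to 20.1) in shLUC, against 29.5% and 28.6% over all anchors. The hub's share was thus below that of all anchors at 20 to 100 kb and above it at 100 to 500 kb. From 500 kb to 2 Mb it had 0 of 122 PETs in shBORIS, which at a floor of 3 counts allows a share of up to 2.46% (exact 95% upper limit 2.98%), and 6 of 124 in shLUC, or 4.84% (1.8 to 10.2). Above 2 Mb the hub had 13 PETs in shBORIS, where random ligation predicts 9.41, and 12 in shLUC, where it predicts 8.95. Under 2 Mb it predicts only 0.603 of the 109 PETs in shBORIS and 0.565 of the 112 in shLUC.

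**Figure D3:**
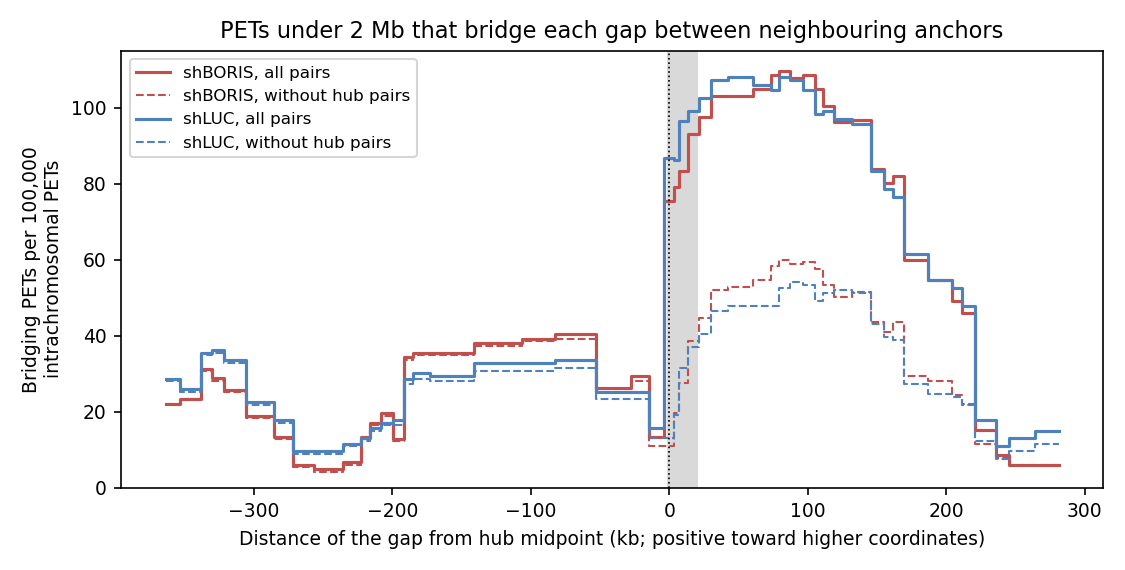
PETs under 2 Mb whose anchors lie on opposite sides of each gap between neighbouring window anchors, per 100000 PETs within chromosomes of the table, against the distance of the gap from the hub midpoint in kb. Solid lines count all pairs, dashed lines leave out pairs of the hub, red is shBORIS, blue is shLUC, and the grey band is EPHB3. Both solid lines jump at the hub and drop past the anchor 215 kb away, whereas the dashed lines rise and decline more gradually between them, up to 60.1 per 100000 in shBORIS and 54.1 in shLUC.

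Pairs without the hub traced the same stretch less sharply. Counting all pairs, 22 PETs in shBORIS and 23 in shLUC bridged the gap just below the hub. The gap just above it was bridged by 123 in shBORIS and 127 in shLUC. By construction this jump is the hub's PETs toward higher coordinates less those toward lower ones, so it only restates their direction. Without pairs of the hub, the same pairs necessarily bridge both of these gaps, with 18 PETs in shBORIS and 19 in shLUC. These were fewer than the 46 in shBORIS and 34 in shLUC at the gap before them. Such PETs then numbered up to 98 in shBORIS and 79 in shLUC in the stretch beyond EPHB3. They declined gradually to 36 in shBORIS and 32 in shLUC just before the strongest partner, and 19 in shBORIS and 18 in shLUC bridged the gap just past it. With the hub's pairs these last values were 75 in shBORIS and 70 in shLUC before the partner and 25 and 26 past it.

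The 18 called partners, which were chosen for their contact with the hub and of which 2 lie past the strongest one, also contacted each other. They shared 114 PETs among themselves in shBORIS and 79 in shLUC, on 83 of the 153 possible pairs. Of these pairs 12 were called in shBORIS and 8 in shLUC. Other anchor pairs of like spacing were not counted, so these counts do not set the partners apart from other nearby anchors. Both tables called 4 of the 16 called in either, or 25%, beside 34.8% of all called interactions.

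Window pairs without the hub mostly kept to their own side of it, which was not particular to this position. Those with both anchors above the hub held 193 PETs in shBORIS and 139 in shLUC, and those with both anchors below it held 144 in shBORIS and 92 in shLUC. Only 15 PETs in shBORIS and 13 in shLUC joined an anchor below the hub to an anchor above it. A single crossing pair was called, in both tables. It joined chr3:184260838-184262422, the anchor just below the hub, to chr3:184494202-184496926, the hub's own strongest partner, with 5 PETs in shBORIS and 4 in shLUC across 234 kb.

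**Figure D4:**
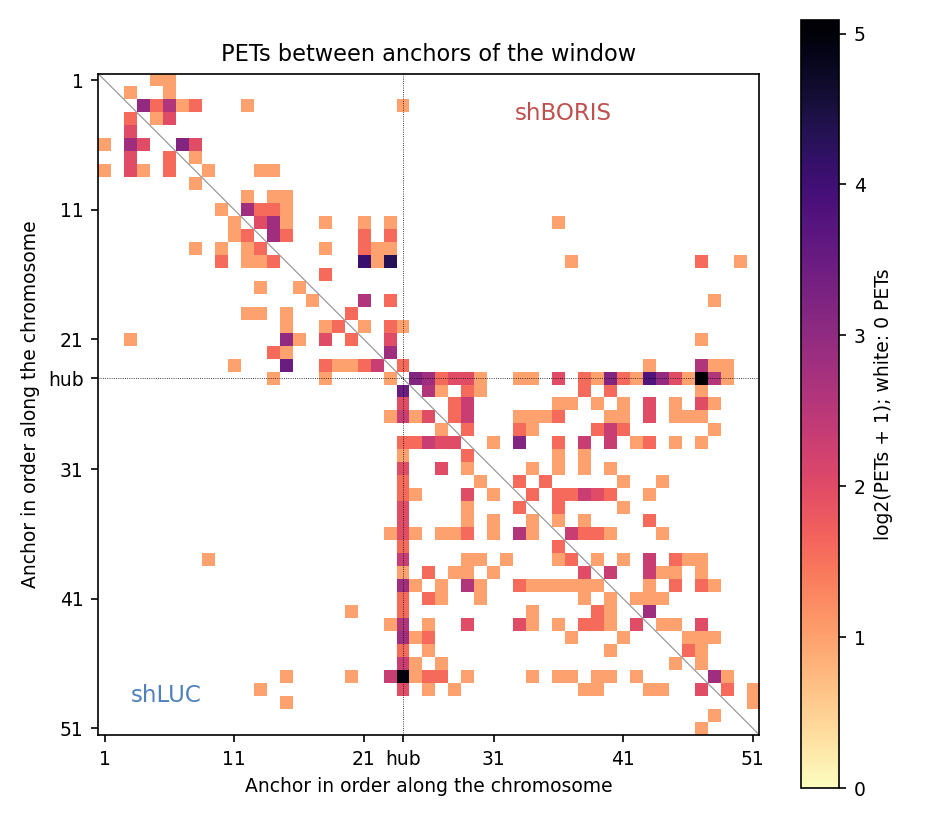
PETs between each pair of the 51 window anchors, in order along the chromosome, as log2(PETs + 1), with shBORIS above the diagonal, shLUC below it and pairs with 0 PETs in white. Dotted lines mark the hub. The hub's row and column are filled from the hub to its strongest partner and nearly empty on the other side in both tables.

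The scaled ratio of shBORIS over shLUC was 1.40 (1.07 to 1.84) for pairs below the hub. For pairs above it the ratio was 1.24 (0.996 to 1.56), an interval that includes 1. For crossing pairs it was 1.03 (0.459 to 2.36) and for pairs of the hub inside the window 0.922 (0.699 to 1.22). Pairs without the hub that left the window for elsewhere on chromosome 3 had 0.961 (0.757 to 1.22). These ratios were not tested, like stretches elsewhere were not counted, and calls picked the hub. The largest counts below the hub were those of chr3:184088732-184090363. It shared 19 PETs in shBORIS and 10 in shLUC with chr3:184260838-184262422 (scaled ratio 1.70, 0.753 to 4.10). It shared 16 in shBORIS and 7 in shLUC with chr3:184230886-184232543 (2.05, 0.797 to 5.89). Both pairs were called in each table and both intervals include 1, so neither difference could be told from counting error. Further along, chr3:184309386-184313407 and chr3:184359720-184361793 shared 8 PETs in shBORIS and 3 in shLUC. chr3:183944569-183946346 and chr3:183965944-183968880 shared 5 and 6. chr3:183965944-183968880 and chr3:184002135-184003373 shared 8 and 2, and that pair was called in shBORIS only. Tied with it at 10 PETs in all was the pair of chr3:184258585-184259755 and chr3:184260838-184262422, with 6 PETs in shBORIS and 4 in shLUC, called in both tables.

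Of 51 window anchors, 6 had at least 5 called interactions in either table, or 11.8%, beside 2.23% of all anchors, a measure that picked the region. Apart from the hub, chr3:184444580-184446185 had 7 in shBORIS and 4 in shLUC, and chr3:184309386-184313407 had 6 in each. chr3:184494202-184496926, chr3:184285752-184288024 and chr3:183965944-183968880 had 5 each in shBORIS and 3, 3 and 4 in shLUC. At the other end, 13 window anchors, or 25.5%, had no called interaction in either table, beside 53.9% of all anchors. The anchor at the far end of the strongest contact sent 12.1% of its PETs under 2 Mb toward higher coordinates in shBORIS and 9.26% in shLUC. Without its PETs to the hub these shares were 24.2% (11.1 to 42.3) in shBORIS and 20.8% (7.13 to 42.2) in shLUC. They rest on 33 PETs in shBORIS and 24 in shLUC. The medians given above keep all contacts and need at least 50 PETs, so these shares cannot be set beside them.

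**Figure D5:**
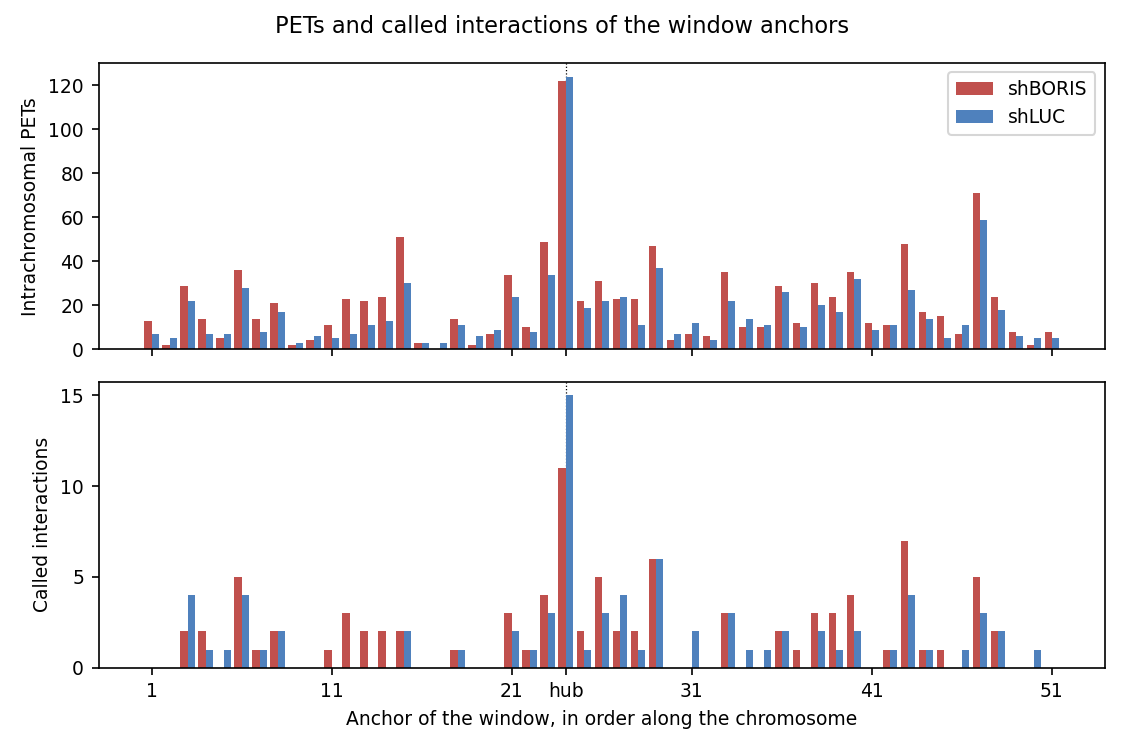
PETs to other anchors of chromosome 3 (top) and called interactions (bottom) of each of the 51 window anchors in order along the chromosome, with shBORIS bars left of shLUC bars. The hub stands out with 122 and 124 PETs and with 11 and 15 called interactions, and the next highest anchor, at the far end of its strongest contact, has 71 and 59 PETs.

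Outside the hub's own contacts, no difference between the pools in this region passed a test made over the whole genome. Fisher's exact test of each pair with at least 10 PETs covered 6 window pairs without the hub and called 0, beside 0.0506% of all pairs called higher and 0% called lower in shBORIS. The smallest adjusted p was 0.912, and 0 of the 6 had an unadjusted p under 0.05, where 3.06% of all pairs had one and were higher and 2.63% had one and were lower. Summed over their PETs within the chromosome, 44 window anchors other than the hub were tested and 0 called by Fisher's exact test, beside 0.0153% of all anchors called higher and 0.0051% called lower. The anchor with the smallest p, chr3:184063114-184064282, was named after its value was seen. It had 23 PETs in shBORIS and 7 in shLUC, and the scaled ratio was 2.95 (1.22 to 8.13) with an adjusted p = 0.537 by Fisher's exact test. Among the 44 anchors 1 unadjusted p was under 0.05, where 3.25% of all anchors had one and were higher and 3.17% had one and were lower in shBORIS. For PETs to other chromosomes 49 window anchors, the hub included, were tested, 0 were called and 2 had an unadjusted p under 0.05, beside 0.014% and 0% of all anchors called higher and lower and 3.09% and 2.47% with such an unadjusted p. These tests compare 2 pooled tables, not the conditions.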

How the data were processed

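SMC1 ChIA-PET libraries of TAE684-resistant Kelly cells, 2 with shBORIS and 2 with shLUC, were read from 1 pooled table per group. Reads were handled by the submitters on hg19 with tools that include cutadapt 1.8 and Bowtie, per the submitters' processing notes. The program that defined anchors and scored pairs is not given in the sources used here. Each PET count is an unnormalized count per anchor pair, per the file headers, and was read as deposited. The authors' hypergeometric p-value, so named per the file headers, was not used. The Bayes probability is a fraction from 0 to 1, per the file headers. The deposited shBORIS table has no header, and its columns were taken to follow those of the shLUC table. Starts were raised by 1 so that the first base is 1.

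Called interactions join anchors of the same chromosome with a Bayes probability of at least 0.9 and 3 or more PETs. Scaled ratios divide each value by its table's total of the same kind. Intervals are exact 95% Clopper-Pearson intervals. Like the floor of 3 counts, they cover only counting error, because PCR copies cannot be told from separate molecules here. Fisher's exact tests ran over all pairs, or all anchors, that had 10 or more PETs in both tables together; p-values were adjusted by Benjamini-Hochberg and 0.05 was the threshold. The hub's own PETs within the chromosome stayed in these fits, but their p-values are not given. Random ligation was predicted from each anchor's PETs to other chromosomes. The hg19 positions of EPHB3 and the hub anchor were supplied with the definition of the region, and the anchor was found in both tables. The text names the hub, its called partners, window anchors with at least 5 calls, the 5 other window pairs with the most PETs, with a sixth tied at the last place, and the 3 most alike anchors. Members, lists and tests were chosen with earlier results of these data known. Scripts, tested on simulated data, used Python 3.11.15, pandas 2.3.3 and SciPy 1.17.1.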

Additional observations from a re-analysis of the deposited data

How the results depend on the processing

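With at least 5 PETs for a call, the hub had 7 called interactions in shBORIS, 5 in shLUC and 5 in both, so that shBORIS then had more calls than shLUC, whereas at 3 PETs it had fewer. A minimum of 2 PETs, a lower Bayes probability or none at all left the counts at 11, 15 and 8. These settings could not have moved them. Every hub pair with 3 or more PETs had a Bayes probability of at least 0.947, and every one with 2 PETs had at most 0.88. In called pairs only, the share of PETs toward higher coordinates was 100% in shBORIS and 100% in shLUC. With both midpoints required inside the window, 259 pairs remained, which follows from leaving out pairs to other regions. Under the other settings the scaled ratio of the hub's PETs within the chromosome ranged from 0.858 to 0.951, and that of its PETs to other chromosomes was 1.04 when scaled to all PETs. The tests called 0 window pairs without the hub with at least 5 or 20 PETs summed and with a negative binomial dispersion of 0.1, and 0 window anchors other than the hub with at least 20 PETs. No paired analysis was possible because the libraries of a group are summed in its table, and no replicate could be left out. Pairs of the hub hold few PETs, so the depth limits the comparison to large differences.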
